A study of Homo sapiens with 8 samples.

Results

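The RNA that NAD-Capture recovered from wild-type HEK293T cells was compared with RiboMinus RNA of the same line, gene by gene. The 5 wild-type libraries of the 8 in the series were used: 2 labelled RiboMinus and 3 labelled NAD-Capture. HEK293T is a line derived from human embryonic kidney and grown in culture, here with no treatment. All 5 libraries carry the modification label Wt, and nothing in the labels says that replicates came from separate cultures, so p-values measure only the spread between these libraries, which may be technical. RiboMinus removes ribosomal RNA from total RNA, and those libraries were made with an Illumina TruSeq kit. NAD-Capture began from 100 µg of total RNA without that step, and the recovered RNA was amplified with a SMARTer low-input kit. Capture and library kit changed together, so their parts in any difference cannot be told apart. The labels' protocols name a reaction without the cyclase as background control. That control was not analysed here. All 25691 gene symbols that the 53216 deposited transcript rows map to were considered, and 16857 of them passed a filter on low values.

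RNA polymerase II normally begins a transcript with a nucleoside triphosphate, which is then capped with methylguanosine. The cofactor NAD contains adenosine and can be built in as the first nucleotide in place of ATP, which leaves NAD at the 5′ end of the RNA. In NAD-Capture, ADP-ribosyl cyclase replaces the nicotinamide of that NAD with an alkyne alcohol, a click reaction attaches biotin, and streptavidin beads hold the RNA. DXO, whose removal is the subject of the series' other libraries, takes NAD off RNA ends. Small nucleolar RNAs (snoRNAs) guide chemical changes on ribosomal RNA. Those of the H/ACA type guide pseudouridine and those of the C/D type guide 2′-O-methylation, while small Cajal body RNAs (scaRNAs) do the same for spliceosomal RNAs. Most human snoRNAs are cut from introns of other genes.

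Among noncoding RNAs with at least 5 FPKM in every library, those with the largest gain after capture were of these kinds, so their sequences are shown, together with SCARNA12, which was lower after capture. Sequences and positions come from GENCODE 29 on GRCh38, while the submitters' processing notes name hg19 for the deposited values. SCARNA1 lies at chr1:27834401-27834566 on the plus strand, within PPP1R8. SNORA62 at chr3:39411054-39411206 and SNORA6 at chr3:39408389-39408539 lie on the plus strand within RPSA. SNORA3B is at chr11:8685439-8685569, plus strand, within RPL27A. SNORD15A is at chr11:75400391-75400538, plus strand, within RPS3. SCARNA12 is at chr12:6967337-6967606, minus strand, within PHB2. Capitals mark ACA placed 3 bases before the 3′ end, the box that names the H/ACA type, and in SNORD15A the letters TGATGA and CTGA, which the C and D boxes carry.
SCARNA1: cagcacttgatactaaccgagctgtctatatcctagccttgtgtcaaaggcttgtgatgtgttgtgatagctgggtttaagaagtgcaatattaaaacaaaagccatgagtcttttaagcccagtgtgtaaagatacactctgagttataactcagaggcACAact
SNORA62: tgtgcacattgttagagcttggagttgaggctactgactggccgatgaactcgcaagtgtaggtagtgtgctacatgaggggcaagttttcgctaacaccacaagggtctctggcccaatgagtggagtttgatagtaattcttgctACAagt
SNORA3B: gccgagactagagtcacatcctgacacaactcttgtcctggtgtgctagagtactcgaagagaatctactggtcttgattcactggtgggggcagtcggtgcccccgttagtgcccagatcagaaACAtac
SNORA6: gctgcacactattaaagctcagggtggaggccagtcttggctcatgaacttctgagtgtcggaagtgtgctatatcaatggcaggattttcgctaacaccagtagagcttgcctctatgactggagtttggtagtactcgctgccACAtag
SNORD15A: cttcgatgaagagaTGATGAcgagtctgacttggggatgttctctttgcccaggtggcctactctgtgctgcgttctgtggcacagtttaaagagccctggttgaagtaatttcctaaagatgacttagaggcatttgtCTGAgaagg
SCARNA12: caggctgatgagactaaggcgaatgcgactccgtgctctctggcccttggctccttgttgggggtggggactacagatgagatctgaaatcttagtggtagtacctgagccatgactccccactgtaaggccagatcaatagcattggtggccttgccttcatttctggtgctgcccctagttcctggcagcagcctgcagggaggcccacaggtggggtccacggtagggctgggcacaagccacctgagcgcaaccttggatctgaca
The ACA box stood at that position in 80 of 106 H/ACA-named RNAs of the reference (75.5%), in 11 of 21 scaRNAs (52.4%) and in 3 of 237 C/D-named RNAs (1.27%). SCARNA12 had no ACA there. It did hold TGATGA near its beginning and CTGA in its last 30 bases, which are left in small letters above. TGATGA anywhere with CTGA in the last 30 bases was found in 176 of 237 C/D-named RNAs (74.3%) and in 7 of 21 scaRNAs (33.3%). Letters were searched on the RNA strand only, and a match is a description of the sequence.

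The libraries differed in depth far more between groups than within them. Read from the lowest values, the RiboMinus libraries 1 and 2 held the equivalent of 10675200 and 8730350 fragments, and NAD-Capture libraries 1, 2 and 3 held 192488, 165539 and 248767. The value of 1 fragment per kilobase was thus 0.0937 and 0.115 FPKM, which divides fragments by transcript length and library size, in RiboMinus, and 5.20, 6.04 and 4.02 FPKM in NAD-Capture. Across the 16857 genes tested, Spearman's rho between the RiboMinus libraries was 0.981, and between pairs of NAD-Capture libraries it was 0.651 to 0.657. Of the 8 fixed markers of the line, VIM stood at 321 and 308 FPKM in RiboMinus and at 77.8, 103 and 72.5 in NAD-Capture, and KRT18 at 22.3 and 18.7 against 16.7, 4.86 and 8.88. The other 6 were higher in every captured library: NEFM at 3.89 and 4.20 FPKM against 83.1, 79.3 and 34.8, NEFL at 4.12 and 4.00 against 14.4, 20.1 and 14.5, CDH2 at 8.64 and 7.81 against 17.8, 20.0 and 10.0, and KRT8 at 4.98 and 2.81 against 19.4, 7.50 and 9.98. PAX2 and LHX1, both kidney transcription factors, were under 0.4 FPKM in RiboMinus and at 4.77 to 7.54 FPKM in NAD-Capture. Of 13 markers fixed for other cell types, PTPRC, HBB, CD3E and DCN were listed at 0 in all 5 libraries. CDKN2A stood at 54.2 and 49.7 FPKM in RiboMinus and 88.5, 49.3 and 46.5 in NAD-Capture, COL1A1 at 1.27 and 1.56 against 8.27, 8.57 and 9.28, and the other 7 were under 0.4 FPKM in RiboMinus and at 0 to 26.1 in NAD-Capture.

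The captured RNA held a smaller share of coding RNA and a larger share of small noncoding RNA. Protein-coding genes made up 64.7% and 63.5% of the summed FPKM in RiboMinus libraries 1 and 2. In NAD-Capture libraries 1, 2 and 3 they made up 32.8%, 24.5% and 35.7%. The groups did not overlap, and the means were 64.1% ± 0.887 (SD, n = 2) and 31.0% ± 5.84 (SD, n = 3), a difference of -33.1 percentage points. An exact permutation test, two-sided, gave p = 0.2, the smallest that 3 libraries against 2 allow. Since FPKM divides by length, short RNAs weigh heavily in such a sum. Weighted by transcript length, the coding share was 93.6% and 93.2% in RiboMinus and 78.7%, 72.6% and 82.3% in NAD-Capture, again without overlap.

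SnoRNAs and scaRNAs took the opposite course. Their joint share of the summed FPKM was 10.3% and 12.9% in RiboMinus and 25.6%, 27.0% and 20.3% in NAD-Capture, a gain of 12.7 percentage points with the same exact permutation p of 0.2. Weighted by length the share was 0.910% and 1.01% in RiboMinus and 4.52%, 5.66% and 3.03% in NAD-Capture. RMRP, the RNA of RNase MRP, was the most abundant gene in both groups, with 12.3% and 12.1% of the summed FPKM in RiboMinus and 15.1%, 17.2% and 11.4% in NAD-Capture. The ranges of RMRP's share overlapped. MicroRNA genes held 1.96% and 1.30% in RiboMinus and 10.1%, 16.8% and 18.9% in NAD-Capture, but these sums rested on very few fragments, as described for short RNAs further on.

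Each gene was tested with limma on log2(FPKM + 1), and a gene is called higher or lower in NAD-Capture where its Benjamini-Hochberg adjusted p was under 0.05. Differences are given on this log2 scale as NAD-Capture minus RiboMinus, which understates the change of low genes. Of 16857 genes, 4126 (24.5%) were called, 2787 (16.5%) higher and 1339 (7.94%) lower. All 4126 had groups that did not overlap, as did 9377 of all genes tested (55.6%). Where groups of a called gene are said not to overlap, this therefore adds nothing to its call. The count rested on both RiboMinus libraries: without RiboMinus replicate 1 it was 19 and without replicate 2 it was 18, although all 4115 and 4116 called genes still fitted kept their sign. The unadjusted p was under 0.05 for 6365 genes with all 5 libraries, for 3305 without RiboMinus replicate 1 and for 3337 without replicate 2.

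The balance of higher and lower calls depended on the genes admitted and on the scaling. Of the 4126 calls 67.5% were higher. With each library centred on its median gene, which lowered the differences by 0.46 on the log2 scale, 42.6% of 5171 calls were higher. At a mean FPKM of at least 10 it was 47.2% of 2341 calls, and with that minimum set on RiboMinus alone 22.2% of 1414. Of the higher calls, 1760 (63.2%) had a mean RiboMinus FPKM under 1. Such genes passed the filter only through their level after capture, where 1 fragment on a transcript of ordinary length is worth several FPKM. The median difference of all genes tested was 0.20, and of the 6856 genes at a mean FPKM of 10 or more it was -0.34. Gene groups are described against these values. A median between them lies under that of all genes and above that of genes at 10 or more. A positive median under 0.46 changes sign with the centring.

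The protein-coding genes with the largest gains, among those called with at least 5 FPKM in every library, were led by ribosomal protein genes and a mitochondrial chaperonin. Outside that limit 144 coding genes were called higher with a larger difference than RPL31, from 4.18 to 6.54. Of these, 53 were listed at 0 in both RiboMinus libraries. RPL31, a protein of the large ribosomal subunit, stood at 653 and 595 FPKM in RiboMinus and at 13158, 15058 and 7197 FPKM in NAD-Capture. All 3 captured libraries lay above 10 times either RiboMinus value, and the difference was 4.17 (SE 0.382, limma adjusted p = 0.00320). HSPE1, the co-chaperonin of HSP60 in mitochondria, had 104 and 96.3 FPKM in RiboMinus and 1896, 1650 and 1782 FPKM in NAD-Capture. Its replicates were tight in both groups, and the difference was 4.14 (SE 0.174, limma adjusted p = 0.00106). HMGN5, a nucleosome-binding protein, had 6.32 and 6.10 FPKM in RiboMinus and 169, 65.7 and 106 FPKM in NAD-Capture. That gain rested on about 63, 21 and 51 fragments in the captured libraries, and the difference was 3.89 (SE 0.414, limma adjusted p = 0.00434).

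Close to HMGN5 came FAAP20, a member of the Fanconi anaemia DNA repair complex, with 5.56 and 6.70 FPKM in RiboMinus and 86.0, 112 and 94.4 FPKM in NAD-Capture. GPSM1, a modulator of G-protein signalling, had 5.17 and 6.69 FPKM in RiboMinus and 91.7, 75.3 and 76.2 FPKM in NAD-Capture. H2AC20, a histone H2A gene, had 654 and 704 FPKM in RiboMinus and 7216, 8800 and 5124 FPKM in NAD-Capture. The groups of these 3 genes did not overlap, and their differences were 3.78, 3.57 and 3.34. The other 4 of the first 10 were the ribosomal protein genes RPL9 (3.73), RPLP1 (3.55), RPS18 (3.51) and RPL23 (3.27). RPLP1, part of the stalk of the large subunit, had 308 and 412 FPKM in RiboMinus and 4400, 4516 and 3689 FPKM in NAD-Capture.

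Under the same limit of 5 FPKM in every library, the losses were again led by a ribosomal protein gene. Outside it 20 coding genes were called lower with a larger difference, from -3.56 to -7.11, and 8 of them were listed at 0 in every captured library. The first of these, chosen after its value was seen, was RCC1 (139 and 135 FPKM in RiboMinus, listed at 0 in NAD-Capture). DYNLRB1, chosen in the same way, had 115 and 117 FPKM in RiboMinus and 0.138, 0.117 and 0.140 FPKM in NAD-Capture. Those captured values lie under that of 1 fragment. How reads were shared among transcripts is not given in the sources used here, and its part in such losses was not tested. Within the limit, RPL39 stood at 640 and 620 FPKM in RiboMinus and at 78.5, 45.2 and 44.7 FPKM in NAD-Capture. The highest captured library was far under both RiboMinus values, and the difference was -3.52 (SE 0.297, limma adjusted p = 0.00283). MRPS24, a protein of the small mitochondrial ribosomal subunit, had 123 and 117 FPKM in RiboMinus and 38.9, 11.2 and 7.46 FPKM in NAD-Capture. The captured libraries spread widely here, and the difference was -2.91 (SE 0.674, limma adjusted p = 0.0329). RPL39 and MRPS24 are only 401 and 707 nt long. A captured fragment on them is thus worth more than the 4.02 to 6.04 FPKM of 1 fragment per kilobase. Their captured values may rest on few fragments, which were not counted. MID1, a ubiquitin ligase bound to microtubules, had 95.9 and 97.5 FPKM in RiboMinus and 25.1, 16.5 and 5.41 FPKM in NAD-Capture, a difference of -2.77. The groups of MID1 did not overlap.

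ALYREF, an adaptor for mRNA export, also lay far lower after capture, with 215 and 220 FPKM in RiboMinus and 28.0, 32.6 and 51.9 FPKM in NAD-Capture. ATP5MC1, the ring subunit of ATP synthase, had 223 and 206 FPKM in RiboMinus and 37.4, 14.4 and 66.6 FPKM in NAD-Capture. DHX30, an RNA helicase of mitochondria, had 84.5 and 86.3 FPKM in RiboMinus and 12.1, 17.3 and 13.6 FPKM in NAD-Capture. Neither ALYREF, ATP5MC1 nor DHX30 had overlapping groups, and their differences were -2.55, -2.66 and -2.51. Further losses by the same rule were those of PSMC4, an ATPase of the proteasome (-2.62), PAK1IP1, which takes part in ribosome assembly (-2.55), and TASOR2 (-2.49). TASOR2 rested on 13, 15 and 22 fragments after capture and PAK1IP1 on 2 in each library. The fragments behind ALYREF, ATP5MC1, DHX30 and PSMC4 were not counted, and those of ATP5MC1, at 606 nt, may also be few.

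**Figure D1:**
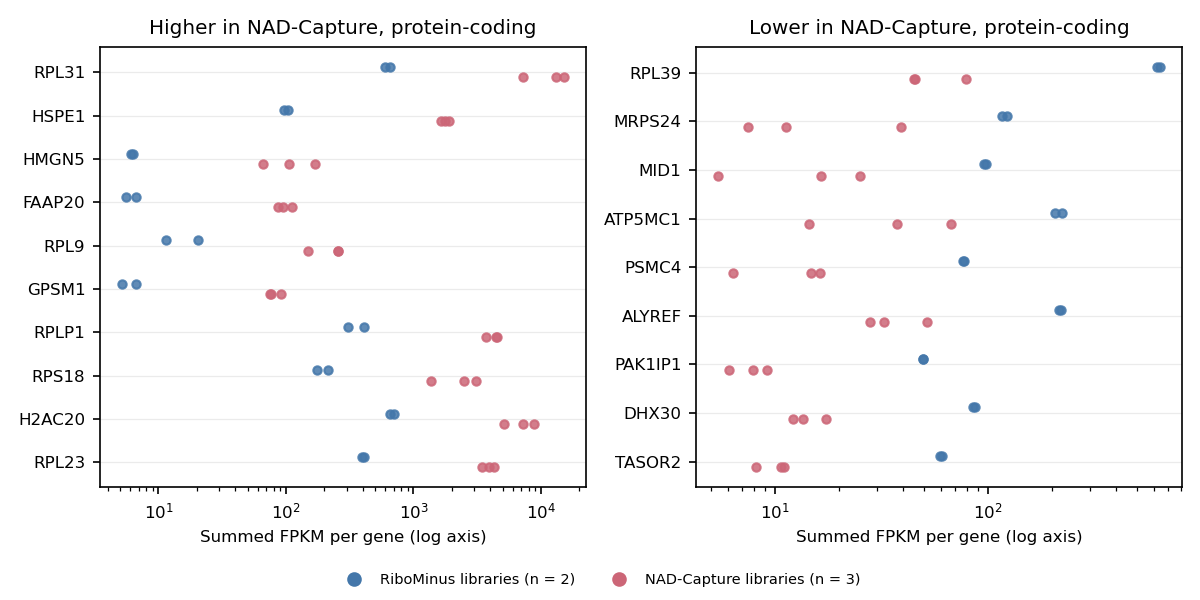
Summed FPKM per gene (log axis) of the 10 protein-coding genes with the largest gains and 9 of the 10 with the largest losses, with 1 point per library and no averaging. Only called genes with at least 5 FPKM in every library were ranked. Blue points are the 2 RiboMinus libraries and red points the 3 NAD-Capture libraries. The colours do not overlap for any of these genes, which the rule for naming them required. RPL31 lies at 653 and 595 against 7197 to 15058, and RPL39 at 640 and 620 against 44.7 to 78.5.

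The first base of a transcript is where NAD would sit, so the annotated starts of the leading genes are shown from RefSeq on GRCh38.p14, with 15 bases before the start and the annotated first base in capitals. The windows are chr2:101002274-101002303 (plus strand) for RPL31, chr2:197500364-197500393 (plus) for HSPE1, chrX:81201899-81201928 (minus) for HMGN5, chrX:119791616-119791645 (minus) for RPL39 and chr7:43869503-43869532 (minus) for MRPS24.
RPL31: acaatccttcgcgctCttcctttccaactt
HSPE1: cgccagggccggactGcgagtctctttgcg
HMGN5: atctgttgaaacattGatttttgacgattc
RPL39: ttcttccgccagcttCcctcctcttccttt
MRPS24: cgcgctgtggtacgtCccgcgctccgcttg
No window of these 5 had A as the annotated first base. A single annotated position stands here for starts that are spread in cells, and the start used in HEK293T was not measured. RPL31 and RPL39, at the opposite ends of the list, both began with C in a run of pyrimidines, the pattern known for ribosomal protein genes.

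Over all coding genes with a RefSeq start, 11758 of those tested (80.8%), A was the annotated first base of 47.8%. It was the first base of 869 of 1664 genes called higher (52.2%), of 500 of 1122 called lower (44.6%) and of 47.3% of those not called. Among genes with a mean FPKM of 10 or more the shares were 48.9% of higher calls, 42.5% of lower calls and 42.9% of genes not called. Read the other way, genes that start with A had a median difference of 0.01, those with C 0.03, those with G -0.20 and the 129 with T 0.65. At a mean FPKM of 10 or more these medians were -0.38, -0.40, -0.48 and, for 40 genes with T, -0.35. Of genes with T 17.1% were called higher, and of genes with A 15.5%, while at the higher minimum it was 17.5% and 13.9%. The share with A was thus larger among higher than among lower calls under both filters, while the medians of A and C starts lay close together and the median of T starts lay above both.

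Protein genes of the cytoplasmic ribosome, which are short and highly expressed, held many gains. Of 79 listed, 77 were tested, 37 were called higher and 4 lower, with a median difference of 1.00 against 0.20 for all genes. All 77 had a mean FPKM of 10 or more. The shares called, 48.1% higher and 5.19% lower, stood against 15.4% and 15.9% of all genes at that level. The members spread from -3.52 for RPL39 to 5.03 for RPL7, which had 1.56 and 5.15 FPKM in RiboMinus and 139, 116 and 131 FPKM in NAD-Capture. RPL36A followed, with 1.98 and 1.04 FPKM in RiboMinus and 86.5, 58.2 and 54.2 FPKM in NAD-Capture. Neither gene's groups overlapped. Both were far below most of the family in RiboMinus. Besides RPL39 the lower calls were RPS9, RPS19 and RPS14, all proteins of the small subunit. RPS9 had 451 and 479 FPKM in RiboMinus and 132, 131 and 137 FPKM in NAD-Capture, a difference of -1.79. Summed over the family, the FPKM was 36015 and 35802 in RiboMinus and 106020, 106107 and 74597 in NAD-Capture, while its share of all FPKM hardly moved (6.69% and 6.61%, then 6.94%, 5.10% and 6.52%). Weighted by length, the share was 4.64% and 4.63% in RiboMinus and 9.68%, 8.96% and 8.22% in NAD-Capture. Ribosomal protein genes have many near-identical pseudogenes, and how reads with several matches were counted is not given in the sources used here, so the values of single members are uncertain.

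Replication-dependent histones, single-exon genes whose mRNAs end in a stem-loop and lack a poly(A) tail, also gained. Of 69 listed, 52 were tested, 28 were called higher and 2 lower, with a median of 1.46. These shares, 53.8% and 3.85%, stood against 16.5% and 7.94% of all genes. H2AC20 is given above. H2BC6 had 0.713 and 0.420 FPKM in RiboMinus and 18.5, 42.7 and 14.1 FPKM in NAD-Capture. The lower calls were H4C11, at 20.7 and 35.1 FPKM in RiboMinus, and H1-6, a testis linker histone, at 6.32 and 4.73 FPKM. Both were listed at 0 in every NAD-Capture library. At the depth of those libraries 1 fragment would be worth about 30.0, 34.9 and 23.2 FPKM on H4C11 and 10.0, 11.7 and 7.76 FPKM on H1-6, so a loss in either gene was not detectable at this depth. Histone mRNAs held 2.22% and 2.29% of the FPKM weighted by length in RiboMinus and 5.55%, 6.11% and 4.76% in NAD-Capture. Copies of 1 histone type are nearly identical, so reads may be split among them.

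Other lists of the translation machinery differed from one another. None of the 20 cytosolic aminoacyl-tRNA synthetases, which load tRNAs, was called higher and 11 were called lower, with a median of -1.05. HARS1, for histidine, had 51.4 and 49.4 FPKM in RiboMinus and 19.2, 6.39 and 11.1 FPKM in NAD-Capture. GARS1, for glycine, went from 83.9 and 86.9 FPKM to 40.9, 16.7 and 20.6 FPKM. Initiation factors had 4 higher and 14 lower calls among 53 tested, with a median of -0.63. EIF4G1, the scaffold of the cap-binding complex, had 200 and 205 FPKM in RiboMinus and 44.5, 39.3 and 45.0 FPKM in NAD-Capture, a difference of -2.21 without overlap. EIF4A2, an RNA helicase of the same complex, went the other way, from 51.9 and 51.5 FPKM to 263, 224 and 206 FPKM, a difference of 2.13. Among 11 elongation factors 3 were called higher (27.3%, against 16.5% of all genes) and none lower, with a median of 0.56, led by EEF1D, which went from 112 and 123 FPKM to 384, 353 and 310 FPKM. Proteins of the mitochondrial ribosome had 1 higher call and 10 lower calls among 77, with a median of -0.68, where those of the cytoplasmic ribosome had a median of 1.00. All 77 had a mean FPKM of 10 or more, and the 13.0% called lower stood against 15.9% of all genes at that level.

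Nucleoporins, proteasome subunits, chaperones and snoRNP proteins held more lower than higher calls. Of all genes at a mean FPKM of 10 or more, 15.9% were called lower and 15.4% higher. Nucleoporins, which build the nuclear pore, had 16 lower calls and no higher call among 29 tested, with the lowest median of the coding lists at -1.29. NUP188, a scaffold of the pore, had 61.9 and 62.9 FPKM in RiboMinus and 24.9, 8.93 and 13.4 FPKM in NAD-Capture. Proteasome subunits had 12 lower calls and no higher call among 32, with a median of -0.94. PSMC4 stood at 77.1 and 76.5 FPKM in RiboMinus and at 6.36, 14.8 and 16.3 FPKM in NAD-Capture, and PSMC3 at 126 and 125 against 29.7, 47.5 and 17.2. Neither gene's groups overlapped. Chaperones had 13 lower and 3 higher calls among 27, with a median of -0.79. Beside HSPE1 the higher calls included HSPB1, a small heat shock protein, at 20.2 and 23.4 FPKM in RiboMinus and 142, 90.7 and 93.0 FPKM in NAD-Capture. CCT3, a subunit of the cytosolic chaperonin, fell from 518 and 487 FPKM to 174, 221 and 132 FPKM. Core and assembly proteins of snoRNPs had 4 lower calls (28.6%) and no higher call among 14, with a median of -0.85. NOP56, a core protein of C/D particles, had 202 and 187 FPKM in RiboMinus and 57.0, 63.0 and 55.2 FPKM in NAD-Capture.

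Cell division genes leaned the same way. DNA replication genes had 12 lower calls and 1 higher call among 41, with a median of -0.83. MCM7, part of the replicative helicase, had 219 and 220 FPKM in RiboMinus and 76.3, 45.1 and 53.2 FPKM in NAD-Capture, and the higher call was ORC3 of the origin recognition complex (0.85). Mitosis genes had 8 lower calls and 1 higher call among 34 (23.5% and 2.94%), with a median of -0.57. At a mean FPKM of 10 or more, 15.9% of all genes were called lower and 15.4% higher. CCNB1, the mitotic cyclin B1, fell from 145 and 137 FPKM to 26.3, 33.7 and 53.0 FPKM. MAD2L1, a spindle checkpoint protein, rose from 75.1 and 66.4 FPKM to 244, 206 and 204 FPKM, without overlap in either gene.

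Several groups held calls in both directions, as all genes together did. Among 77 subunits of oxidative phosphorylation 13 were called higher (16.9%) and 11 lower (14.3%), with a median of -0.25. These shares lay near the 15.4% and 15.9% of all genes at a mean FPKM of 10 or more, the level of 76 of the 77. Genes within 1 complex parted. COX6C, a small subunit of cytochrome oxidase, rose from 78.9 and 76.6 FPKM to 855, 799 and 482 FPKM (3.13), while COX5A of the same enzyme fell from 175 and 164 FPKM to 42.9, 69.6 and 26.3 FPKM (-1.96). In complex III, UQCRB had a difference of 2.18 and UQCRFS1, its iron-sulfur protein, one of -2.02. COX5A and UQCRB were chosen after their values were seen. Spliceosome proteins and hnRNPs had 12 higher and 15 lower calls among 78 (15.4% and 19.2%), with a median of -0.32. SNRPF, a small Sm ring protein, rose from 50.1 and 46.6 FPKM to 331, 373 and 286 FPKM (2.74), and PRPF8, the large core protein of the spliceosome, fell from 163 and 170 FPKM to 63.2, 39.9 and 34.1 FPKM (-1.89). Among 12 RNA polymerase II subunits POLR2F, a small one, was called higher (1.50), and POLR2B, the second largest, and POLR2D were called lower (-1.08 and -0.78).

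Among the rest, actins and tubulins had 4 lower and 2 higher calls among 13 (30.8% and 15.4%). Of all genes at a mean FPKM of 10 or more, 15.9% were called lower and 15.4% higher. ACTB, cytoplasmic actin, had 1064 and 1085 FPKM in RiboMinus and 518, 576 and 371 FPKM in NAD-Capture, a difference of -1.16. Glycolytic enzymes had a median of 0.15, with 3 lower calls and 1 higher call among 17 (17.6% and 5.88%): LDHA rose by 1.23 and PGAM1 fell by 3.07. Genes for protein translocation into the endoplasmic reticulum had 6 lower calls and none higher among 24, led by SEC61A1 of the channel (-1.49). Cholesterol synthesis had 4 higher calls and 1 lower call among 20 (20% and 5%), with a median of -0.03. The numbered zinc finger genes had 43 higher and 11 lower calls among 427, with a median of 0.22. These shares, 10.1% and 2.58%, stood against 16.5% and 7.94% of all genes. Collagens and laminins had 9 higher calls and 1 lower call among 32 tested, of which 10 had a mean RiboMinus FPKM under 1. The medians of the glycolytic and zinc finger lists became -0.31 and -0.23 after centring on the median gene.

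Of the enzymes of NAD itself and of RNA 5′ ends, 15.8% and 23.1% of those tested were called, against 24.5% of all genes. Of 19 genes for NAD synthesis and use, NMNAT1, the nuclear enzyme that makes NAD, and QPRT were called higher and SIRT1, an NAD-dependent deacetylase, lower. NMNAT1 went from 5.55 and 4.39 FPKM to 17.0, 31.8 and 13.6 FPKM, and SIRT1 from 22.3 and 21.7 FPKM to 5.39, 1.80 and 5.99 FPKM. Of 13 decapping enzymes and 5′ exonucleases none was called higher, against 16.5% of all genes. Lower calls numbered 3 (23.1%), among them EDC4 (-1.71) and XRN2 (-1.61). That share stood against 7.94% of all genes and 15.9% of genes at a mean FPKM of 10 or more, the level of 10 of the 13. DXO had 11.2 and 14.3 FPKM in RiboMinus and 33.2, 17.2 and 27.1 FPKM in NAD-Capture, a difference of 0.93 that did not pass the test (SE 0.335, limma adjusted p = 0.107).

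**Figure D2:**
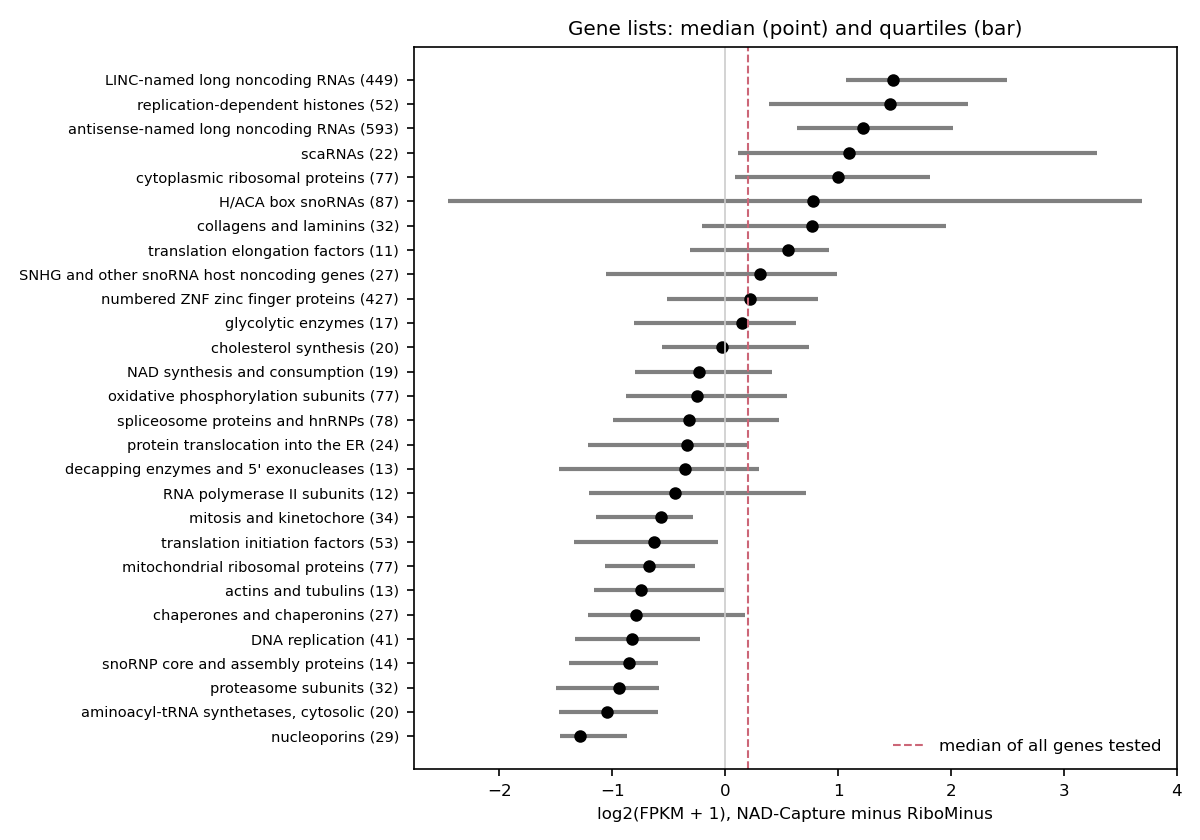
Median (point) and quartiles (bar ends) of the log2 differences, NAD-Capture minus RiboMinus, in each gene list with at least 10 tested members (number in brackets), leaving out C/D snoRNAs, microRNAs and olfactory receptors. The red dashed line is the median of all 16857 genes (0.20). Histones (1.46) and cytoplasmic ribosomal proteins (1.00) lie right of it and nucleoporins (-1.29), aminoacyl-tRNA synthetases (-1.05) and proteasome subunits (-0.94) left of it. Of the 449 LINC-named genes 393, and of the 593 antisense-named genes 398, had a mean RiboMinus FPKM under 1 and passed the filter only through their level after capture.

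The number of exons, counted in the longest GENCODE transcript, ordered the coding genes by their difference. Taking genes with a mean FPKM of 10 or more and leaving out histones and olfactory receptors, the median difference was 0.21 for 86 genes with 1 exon and 0.51 for 199 genes with 2 exons. It was 0.01 for 757 genes with 3 to 4 exons, -0.20 for 1883 with 5 to 8, and -0.49 for 1995 with 9 to 15. It reached -0.71 for 1184 genes with 16 to 30 exons and -0.92 for 247 genes with over 30. The share called lower was 6.98% of single-exon genes and 42.5% of those over 30 exons, and the share called higher was 31.4% and 10.9%. Against 15.4% higher and 15.9% lower over all genes at this level, genes with few exons held more gains and genes with many exons more losses.

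The order was seen in each captured library by itself: from 2 exons to 16 to 30 exons, the median went from 0.57 to -0.59 in NAD-Capture library 1, from 0.41 to -0.70 in library 2 and from 0.51 to -0.76 in library 3. Among transcripts over 1500 and up to 3000 nt only, medians were 0.66 for 2 exons, 0.13 for 3 to 4, -0.21 for 5 to 8, -0.49 for 9 to 15 and -0.65 for 16 to 30, while 38 single-exon genes had -0.12. The 5 genes of this length with over 30 exons had -0.21, with none called lower and 1 called higher, and are too few to place. With the minimum of 10 FPKM set on RiboMinus alone, the medians of the first 4 classes were -0.45, -0.41, -0.40 and -0.47, and the last 3 were -0.68, -0.87 and -1.03. The order among genes with few exons therefore depended on the filter, and the lower medians of the classes from 9 to 30 exons did not, while the class above 30 was lowest except among the 5 genes of that length. Genes with more exons also had longer transcripts and so more fragments behind a given FPKM, and the part of this in the shares called was not tested.

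**Figure D3:**
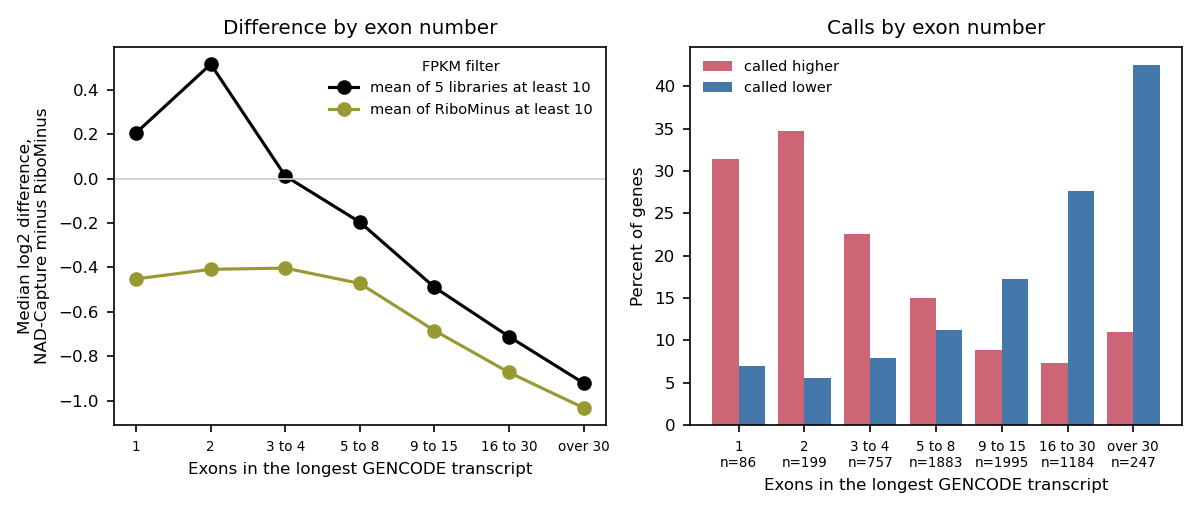
Coding genes by number of exons in the longest GENCODE transcript, without histones and olfactory receptors. Left, the median log2 difference under a minimum of 10 FPKM over all 5 libraries (black, from 0.51 at 2 exons to -0.92 above 30) or over the RiboMinus libraries (olive, from -0.41 to -1.03). Right, the percentage of genes called higher (red) and lower (blue) under the first minimum, with the number of genes in each class.

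The RiboMinus level is 1 term of the difference, so level and difference are tied, and levels are given as a description. Coding genes under 0.1 FPKM in RiboMinus had a median of 2.01, those at 0.1 to 0.5 FPKM 1.94, at 0.5 to 1 FPKM 1.26 and at 1 to 3 FPKM 0.46. These genes passed the filter with the help of their captured level, and none of them was called lower. The median was -0.17 at 3 to 10 FPKM and -0.60 at 10 to 30 FPKM. Genes at 30 to 100 FPKM in RiboMinus had a median of -0.81, with 593 of 1939 called lower, and those at 100 to 300 FPKM one of -0.67. Above 300 FPKM the median was 0.09, and of these 136 genes 45 were called higher and 25 lower.

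Among the noncoding RNAs with at least 5 FPKM in every library, small RNAs led. Larger called gains, from 9.47 to 10.50, stood outside that limit for SNORA36A, SNORA20, SCARNA4, SNORA75 and ROCK1P1, all under 5 FPKM in at least 1 RiboMinus library and chosen after their values were seen. ROCK1P1, a pseudogene of a protein kinase, had 0.705 and 0.152 FPKM in RiboMinus and 1014, 1105 and 869 FPKM in NAD-Capture. Within the limit, SCARNA1, which guides a change on a spliceosomal RNA, stood at 52.2 and 37.4 FPKM in RiboMinus and at 17984, 23689 and 9100 FPKM in NAD-Capture. The difference was 8.44 (SE 0.455, limma adjusted p = 0.00208). SNORA62 had 7.90 and 26.8 FPKM in RiboMinus and 8852, 7343 and 2185 FPKM in NAD-Capture (8.38). SNORA3B had 23.7 and 105 FPKM in RiboMinus and 16522, 20666 and 8681 FPKM in NAD-Capture (8.13). In each case the captured libraries were far above the RiboMinus libraries, and library 3 was the lowest of the captured. SNORD15A had 60.4 and 49.5 FPKM in RiboMinus and 17526, 14128 and 7187 FPKM in NAD-Capture (7.77), and SNORA6 had 38.6 and 55.7 against 5496, 9337 and 3488 (6.89). SNORA62 and SNORA6, both within RPSA, had adjusted p-values of 0.00333 and 0.00220 in limma.

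RNU11, the U11 RNA of the minor spliceosome, was among the 5 most abundant RNAs after capture. It had 604 and 643 FPKM in RiboMinus and 48300, 59534 and 20720 FPKM in NAD-Capture, a difference of 5.97 (SE 0.514, limma adjusted p = 0.00289). Other minor spliceosomal RNAs did not share this gain: RNU12 had 540 and 668 FPKM against 1832, 1751 and 388, RNU6ATAC had 827 and 807 against 1254, 705 and 0, and RNU4ATAC was listed at 0 after capture. RNU12, RNU6ATAC and RNU4ATAC were chosen after their values were seen. RMRP had 66318 and 65676 FPKM in RiboMinus and 231141, 357386 and 129994 FPKM in NAD-Capture. The groups did not overlap, but the difference of 1.74 did not pass the test (limma adjusted p = 0.125), and neither did that of 1.61 for RPPH1, the RNA of RNase P (limma adjusted p = 0.104). VTRNA1-1, a vault RNA of 99 nt, went from 325 and 205 FPKM to 7111, 8203 and 2706 FPKM (4.38).

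Some small RNAs were lower after capture. SCARNA12 had 635 and 633 FPKM in RiboMinus and 255, 146 and 192 FPKM in NAD-Capture (-1.71, SE 0.272, limma adjusted p = 0.0118). SCARNA7 had 432 and 399 FPKM in RiboMinus and 145, 233 and 110 FPKM in NAD-Capture (-1.42). SCARNA12 is 270 nt long and SCARNA7 330 nt. The fragments behind their captured values were not counted and may be few. SNORA48, abundant in RiboMinus at 3907 and 4347 FPKM, had 2082, 1860 and 928 FPKM in NAD-Capture, a difference of -1.43 that did not pass the test (limma adjusted p = 0.0568). Counted as fragments per 1000000 of each library, SNORA48 had 19.4 and 34.7 in RiboMinus and 26.0, 24.2 and 12.1 in NAD-Capture, so on that scale the groups overlapped and the ratio of means was 0.767. The other noncoding losses by the same rule were the pseudogenes PDIA3P1 (-1.72) and ANP32AP1 (-1.67) and DANCR (-1.10), a host transcript of snoRNAs.

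**Figure D4:**
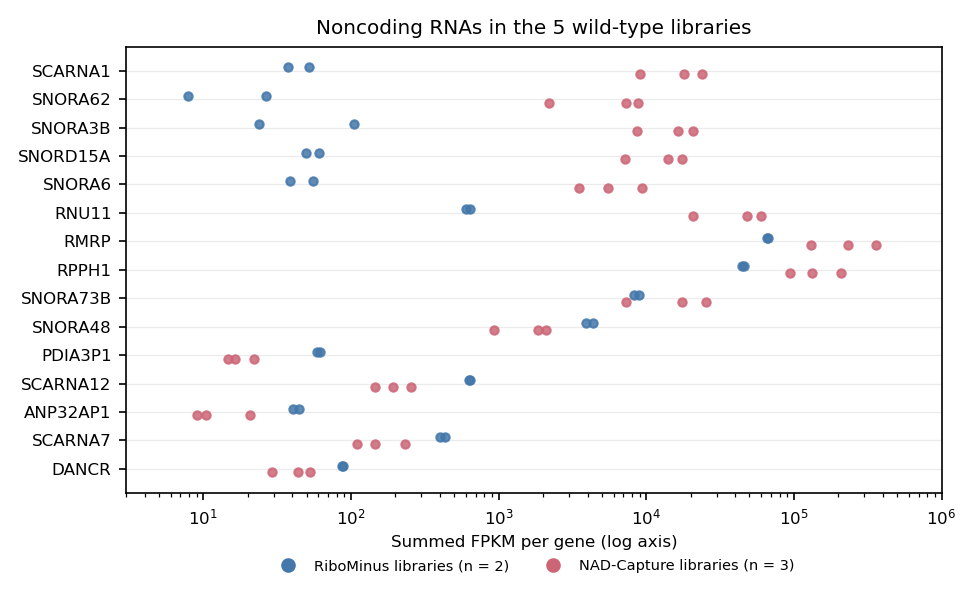
Summed FPKM per gene (log axis) of noncoding RNAs, with 1 point per library: the 5 largest gains, 5 RNAs that are among the most abundant, and the 5 largest losses. Gains and losses were ranked only among called RNAs with at least 5 FPKM in every library. Blue points are the 2 RiboMinus and red points the 3 NAD-Capture libraries. SCARNA1 moves from 52.2 and 37.4 to 9100 and above, RMRP lies near the right edge in both groups, and SNORA73B overlaps between groups.

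By family, H/ACA snoRNAs had 22 higher and 10 lower calls among 87 tested of 106, and scaRNAs 7 and 2 among 22 tested of 24. These shares were 25.3% and 11.5% for H/ACA snoRNAs and 31.8% and 9.09% for scaRNAs, against 16.5% and 7.94% of all genes. All 10 H/ACA RNAs called lower were listed at 0 in every NAD-Capture library, among them SNORA52 (778 and 1036 FPKM in RiboMinus) and SNORA38 (826 and 631 FPKM). For 9 of the 10 the RiboMinus values could be read as fragments. At the same number per 1000000 fragments, the 3 captured libraries together would have held 3.51 fragments of SNORA52 and 0.0632 to 0.847 of the other 8. A lower level of these RNAs after capture was thus not detectable at this depth, whatever the call on FPKM. In the opposite direction SNORA36A was listed at 0 in RiboMinus and had 2530, 1129 and 1061 FPKM in NAD-Capture. C/D snoRNAs, most of which are shorter, had 31 tested of 256, with 7 higher and 3 lower calls (22.6% and 9.68%). SNORD15B, within RPS3 like SNORD15A, had 209 and 302 FPKM in RiboMinus and 24361, 21088 and 11674 FPKM in NAD-Capture. The median of the C/D list moved from -3.54 to 2.92 as single libraries were left out, so it is not used here.

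The protein genes that hold these RNAs were set beside them. Of 136 snoRNAs and scaRNAs tested and placed by GENCODE, 104 lay within a tested protein-coding gene of the same strand, and the sign of the difference was shared in 54. Of the 35 RNAs called higher 31 lay in 25 distinct tested hosts, with a median host difference of -0.10, of which 4 were called higher and 4 lower. Of all 80 distinct tested hosts, with a median of -0.71, 9 were called higher and 24 lower. Among all genes at a mean FPKM of 10 or more, 15.4% were called higher and 15.9% lower. An annotated exon of some hosts, among them RPSA, DKC1 and RPLP2, overlaps the small RNA, so the values of such pairs may not be separate. Of the 15 RNAs called lower 13 lay in 12 tested hosts, with a median of -1.14, of which 1 was called higher and 5 lower. The 10 H/ACA RNAs among these 15 were listed at 0 in NAD-Capture. For the 9 that could be read as fragments a loss was not detectable at this depth, so those pairs say nothing about a shared change. PPP1R8, which holds SCARNA1, had 64.2 and 63.0 FPKM in RiboMinus and 64.4, 53.8 and 67.3 FPKM in NAD-Capture, with overlapping groups. DKC1, which holds SNORA36A and makes the pseudouridine synthase of H/ACA particles, fell from 114 and 118 FPKM to 50.3, 43.3 and 41.2 FPKM (-1.35). RPS3, which holds SNORD15A and SNORD15B, rose from 334 and 323 FPKM to 1065, 888 and 816 FPKM (1.48). RPLP2, which holds SNORA52, rose by 1.33, while SNORA52 was listed at 0 after capture, where a loss was not detectable at this depth. The hosts were chosen after their values were seen.

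How far these values can be read depends on RNA length. Of 1138 rows of up to 80 nt, 0 to 6 were above 0 in a library, and of 888 rows of 81 to 100 nt 11 to 19. From 121 to 140 nt, 65 and 78 of 139 rows were above 0 in RiboMinus and 56, 51 and 52 in NAD-Capture, and all 16 rows of 201 to 500 nt were above 0 in every library. Under about 100 nt a listed value often stood in 1 library only. MIR301B, a microRNA gene, was at 211384 FPKM in NAD-Capture library 2 and 0 in the other 4 libraries, and MIR553 at 6937 FPKM in RiboMinus library 1 alone. SNORD45A was listed at 0 in RiboMinus and in NAD-Capture library 3, and at 43049 and 164464 FPKM in the other two. None of these 3 passed the test, and among the 53 microRNA genes tested none was called higher. MIR630, MIR5047 and MIR3939 were called lower. MIR630 had 1077 and 227 FPKM in RiboMinus, MIR5047 had 268 and 339, MIR3939 had 153 and 97.9, and all were listed at 0 in NAD-Capture, where few RNAs of about this length gave any fragment, so a loss was not detectable at this depth.

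For 136 RNAs of 120 to 140 nt the values could be read back as fragments, which free the comparison from the steep length scaling. Together they held 1223 and 1686 fragments in RiboMinus and 403, 422 and 277 in NAD-Capture. Per 1000000 fragments of each library that was 115 and 193 in RiboMinus and 2094, 2549 and 1113 in NAD-Capture, 12.5 times higher by the means. RNU11 alone held 30 and 43 of the fragments in RiboMinus and 110, 122 and 64 in NAD-Capture. The 93 H/ACA snoRNAs among the 136 RNAs went from 106 and 179 per 1000000 to 1304, 1583 and 744, or 8.51 times. SNORA18, SNORA3B and SNORA20, chosen after their values were seen, held 278 of the 698 captured H/ACA fragments and 26 of the 2688 in RiboMinus. Without them the other 90 stood at 105 and 177 per 1000000 in RiboMinus and 727, 973 and 478 in NAD-Capture, or 5.16 times. The 11 scaRNAs went from 2.34 and 2.29 per 1000000 to 166, 169 and 76.4, on 25 and 20 fragments in RiboMinus and 32, 28 and 19 in NAD-Capture. Most of the captured ones lay on SCARNA4 and SCARNA8, chosen after their values were seen. SCARNA4 held 1 and 0 fragments in RiboMinus and 7, 12 and 9 in NAD-Capture, and SCARNA8 1 and 2 against 11, 9 and 3. Neither of these classes had overlapping groups.

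The same reading shows how few fragments lie behind the largest gains. SNORA3B stood for 1 and 6 fragments in RiboMinus and 33, 37 and 24 in NAD-Capture. SCARNA8 stood for 1 and 2 against 11, 9 and 3, and SNORA36A for 0 and 0 against 5, 2 and 3. RNU11 was better covered, with 30 and 43 fragments against 110, 122 and 64 from the far smaller captured libraries. SNORA48 had 207 and 303 fragments in RiboMinus and 5, 4 and 3 in NAD-Capture, and SNORA52 had 39 and 69 against 0, both from captured libraries of far lower depth. Fragments cover counting only, and copies made in amplification are not independent molecules.

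**Figure D5:**
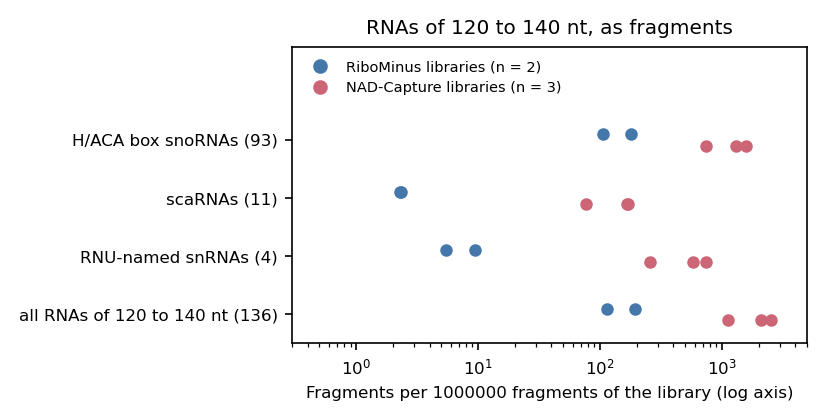
Fragments per 1000000 fragments of the library (log axis) of RNAs of 120 to 140 nt, by class, with the number of RNAs in brackets and 1 point per library. Blue points are the 2 RiboMinus and red points the 3 NAD-Capture libraries. All 136 RNAs together lie at 115 and 193 against 1113 to 2549, and the scaRNAs at about 2.3 against 76.4 to 169.

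Long noncoding RNAs had larger sums after capture, mostly from genes near 0 in RiboMinus. The 1236 LINC-named genes summed to 306 and 329 FPKM in RiboMinus and to 3052, 3135 and 3348 FPKM in NAD-Capture. The 1157 antisense-named genes summed to 1024 and 1097 FPKM against 4723, 4630 and 4987 FPKM. Both sums kept apart between groups and varied little within them. The summed FPKM of all rows was also larger, at 541482 and 544947 in RiboMinus and 1590610, 2107430 and 1148710 in NAD-Capture. Its part in these 2 sums was not tested. LINC01679 was listed at 0 in RiboMinus and at 95.0, 90.3 and 75.1 FPKM in NAD-Capture, on 47, 39 and 49 fragments. ELFN1-AS1 was listed at 0 in RiboMinus and at 68.1, 35.1 and 30.9 FPKM in NAD-Capture. Whether counting used strand is not given in the sources used here, so reads of antisense genes and their partners cannot be told apart.

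Protein-coding genes listed at 0 in RiboMinus gave values after capture as well. Of 3605 coding symbols at 0 in both RiboMinus libraries, 1094, 1039 and 1447 were above 0 in NAD-Capture libraries 1, 2 and 3, and their mean over all 3605 was 2.17, 2.31 and 2.70 FPKM. The 370 olfactory receptor genes, which serve smell in sensory neurons, summed to 3.97 and 4.67 FPKM in RiboMinus and to 156, 232 and 482 FPKM in NAD-Capture. All 83 receptors tested had passed the filter through NAD-Capture, and 2 of them, OR1F1 and OR7G2, were called higher. OR1F1 had 0.247 and 0.149 FPKM in RiboMinus and 6.73, 15.6 and 10.4 FPKM in NAD-Capture. Depth and the summed FPKM of all rows differ between the groups as well, and their part in these sums was not tested.

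SNHG genes, noncoding hosts of snoRNAs, had 4 higher and 2 lower calls among 27 tested. These shares, 14.8% and 7.41%, lay near the 16.5% and 7.94% of all genes. SNHG3 rose from 48.4 and 47.4 FPKM to 157, 209 and 167 FPKM (1.86, SE 0.196, limma adjusted p = 0.00426). SNHG25, of 106 nt, had 593 and 258 FPKM in RiboMinus and was listed at 0 in all 3 NAD-Capture libraries, a length at which few fragments can be seen at this depth. The list's median of 0.31 turned to -0.14 when libraries were centred on the median gene.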

How the data were processed

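The authors deposited FPKM values per RefSeq transcript and library in a table of 53216 rows. The submitters' processing notes name TopHat2 2.1.1, Bowtie2 2.2.8.0, Cuffdiff and hg19, without roles. Any scaling between libraries is not given in the sources used here. A RefSeq table (GRCh38.p14) gave symbols for 52024 rows (97.8%). FPKM were summed per symbol. Rows without a symbol held 0.402% to 3.96% of a library's FPKM. Lengths, exon numbers and snoRNA sequences came from GENCODE 29.

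Depth was read from the steps of low values of transcripts of 1500 to 6000 nt, with 200 nt taken off the length. Of those values, 71.2% to 73.7% lay within 4% of a whole multiple. Summed values of several transcripts are not whole, so no count test was run.

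The 5 libraries entered a moderated linear model (limma 3.58.1 under R 4.3.3, trended prior) on log2(FPKM + 1), two-sided, over genes with a mean FPKM of at least 1, with Benjamini-Hochberg adjustment and a threshold of 0.05. The fit was tested on simulated data. Shares were compared with exact permutation tests (Python 3.11.15). Named genes were the called genes with groups that did not overlap, at least 5 FPKM in every library and the largest differences (10 coding and 5 noncoding in each direction). Added to them were the 5 most abundant per group, up to 2 per list and direction, and DXO. A gene that this rule names is not reported here. The gene lists, the markers and the comparison were chosen with earlier results of these data known. Replicate libraries differed by more than sampling noise. Alternatives were other pseudocounts, filters and scalings, transcripts in place of genes, all 8 libraries, a replicate block, a fold limit, and leaving out each library.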

Additional observations from a re-analysis of the deposited data

How the results depend on the processing

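Against 4126 calls, limma gave 2341 at a mean FPKM of at least 10, 1414 with that minimum on RiboMinus alone, 2375 after quantile normalization, 2517 with all 8 libraries, 1293 with a 2-fold limit and 6221 over single transcripts; the cause was not tested where no fewer genes entered. Leaving out 1 library gave 18 to 5266 calls, and the low end belonged to either RiboMinus library. With a replicate block the count was 0, with 5663 genes at an unadjusted p under 0.05. Only 2 replicate numbers are shared between groups, and deviations of same-numbered libraries had a Pearson r of -0.00133, so the numbers give no sign of pairing. A weight per group, chosen after seeing the data as was the minimum on RiboMinus alone, gave 5250 calls, 3932 of them among the 4126. The difference of RPPH1 turned to -0.49 and that of SNORA73B to -2.17 after quantile normalization, and the cause was not tested. The coding and snoRNA share differences ranged from -35.4 to -29.8 and from 11.4 to 14.7 percentage points as libraries were left out, and kept their direction under length weighting and without RNAs under 120 nt. At 165539 to 248767 fragments per NAD-Capture library, a gene of 1 kb needs several FPKM to show 1 fragment.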
